A study of Mus musculus with 48 samples.

Results

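The p53 pathway target module is a list of 32 mouse genes: Trp53, which encodes p53, its regulators Mdm2, Mdm4 and Ppm1d, and genes that p53 is known to activate after DNA damage. The members were chosen by name from this pathway and looked up by symbol among the 55487 genes of the count tables, where all 32 were found once. Their RNA was measured in sorted cells of digested mouse lymph nodes by stranded sequencing of polyA RNA, in 48 libraries that form 16 groups of 3. Of the 4 cell types, the macrophages of the medullary sinus (MSM) and of the subcapsular sinus (SSM) take up material from the lymph that enters a node, migratory dendritic cells (mDC) carry antigen to the node from the tissue, and resident dendritic cells (rDC) stay in it. Each type was taken from a lymph node (LN) or a tumor-draining lymph node (TDLN), after treatment with PBS, the vehicle buffer, or with cisplatin (CIS), a platinum drug that crosslinks DNA. All groups are labelled wild type; the strain, age, sex, tumor, dose and time of treatment are not given in the sources used here. Nothing in them tells if the 3 replicates of a group are different mice. The p-values below may therefore reflect only the spread of these libraries, which may be technical.

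The protein p53 is held at a low level by Mdm2, a ubiquitin ligase that marks it for degradation, and by the related inhibitor Mdm4. After DNA damage p53 is stabilised, mostly without more Trp53 RNA, and it then activates genes that stop the cell cycle, such as Cdkn1a, that trigger cell death, such as Bbc3, Pmaip1 and Bax, that repair DNA or limit growth, and that restrain p53 itself, such as Mdm2 and Ppm1d. A rise of these targets is the textbook response of dividing cells to cisplatin. Many of the targets are also driven by other factors, and the level of p53 protein was not measured here.

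Among the macrophage libraries, 4 stood apart from the other 2 of their group. Medullary LN PBS replicate 2, subcapsular LN PBS replicate 2, medullary TDLN CIS replicate 1 and subcapsular TDLN CIS replicate 3 correlated with their own group at no more than 0.751 and with the same condition of the other macrophage label at 0.99 or more, over 8001 genes. The medullary LN CIS libraries held 1800 to 1900 CPM (counts scaled to library size) of 12 sinus macrophage markers in sum, against 13800 to 14600 in medullary LN PBS, and Siglec1 and Adgre1, which define these macrophages, were at 0 to 0.292 and 3.49 to 3.99 CPM. The summed dendritic cell markers were 18900 to 23800 CPM in migratory and 3100 to 3950 CPM in resident dendritic cells. Resident dendritic cell libraries also held 2300 to 4720 CPM of B cell markers and 1390 to 3050 CPM of plasmacytoid dendritic cell markers. Of the dendritic cell libraries, resident TDLN CIS replicate 2 differed most from its group. Its chi-square per degree of freedom was 10.4 against replicate 1 and 10.1 against replicate 3, which stood at 1.86 against each other. Totals were 6456456 to 10434248 counts in the macrophage libraries and 2002713 to 3842097 in 18 dendritic cell libraries, but 10733509 to 15481059 in the migratory TDLN PBS and resident LN PBS groups, where depth and group cannot be told apart. In bulk libraries such as these, fewer cells of a type and less RNA per cell cannot be told apart.

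Promoter windows are printed for 4 of the 12 members that fell in migratory dendritic cells of the TDLN with cisplatin, to show the letters at their starts. Each of the 4 holds a match to the pattern described below, so they do not stand for all 12. The windows run from 250 bases before to 50 bases after the annotated start, are 300 bases long, and were taken from RefSeq on GRCm38.p6. Capitals mark matches to the p53 consensus decamer, the 10-base unit of which a full p53 site holds a pair; the pattern reads the same on both strands. The Cdkn1a window on the plus strand is chr17:29090729-29091028, and the windows of the other genes lie on the minus strand at chr11:40755237-40755536 for Ccng1, chr10:117710709-117711008 for Mdm2 and chr9:36797285-36797584 for Ei24.
Cdkn1a: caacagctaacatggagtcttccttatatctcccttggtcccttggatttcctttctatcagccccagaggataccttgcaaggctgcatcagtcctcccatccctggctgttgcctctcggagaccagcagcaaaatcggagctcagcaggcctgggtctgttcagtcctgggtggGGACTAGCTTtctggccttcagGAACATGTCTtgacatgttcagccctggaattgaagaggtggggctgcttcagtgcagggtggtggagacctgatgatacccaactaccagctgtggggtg
Ccng1: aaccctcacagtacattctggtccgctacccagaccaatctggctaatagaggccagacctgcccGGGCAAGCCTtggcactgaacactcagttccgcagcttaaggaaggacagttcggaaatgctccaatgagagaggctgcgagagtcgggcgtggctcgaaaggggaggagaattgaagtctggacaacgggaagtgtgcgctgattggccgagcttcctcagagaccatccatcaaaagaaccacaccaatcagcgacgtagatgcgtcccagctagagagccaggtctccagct
Mdm2: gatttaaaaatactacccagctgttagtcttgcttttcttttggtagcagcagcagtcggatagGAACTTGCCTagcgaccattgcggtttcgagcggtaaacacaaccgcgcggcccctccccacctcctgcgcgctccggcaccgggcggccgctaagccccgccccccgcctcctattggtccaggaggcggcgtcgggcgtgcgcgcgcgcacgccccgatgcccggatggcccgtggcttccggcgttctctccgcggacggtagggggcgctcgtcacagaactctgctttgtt
Ei24: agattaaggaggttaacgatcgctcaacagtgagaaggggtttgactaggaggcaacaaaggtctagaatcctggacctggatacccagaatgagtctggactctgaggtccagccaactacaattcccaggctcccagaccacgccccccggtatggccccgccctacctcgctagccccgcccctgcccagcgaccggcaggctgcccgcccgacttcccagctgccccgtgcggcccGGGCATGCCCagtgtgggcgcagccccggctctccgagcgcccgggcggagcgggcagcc
Counted from the start site, the Cdkn1a decamers began at -73 (GGACTAGCTT) and -51 (GAACATGTCT), and the second was followed directly by TGACATGTTC, which departs from the pattern at 1 base. The Ccng1 decamer began at -185 (GGGCAAGCCT) and was preceded directly by AGACCTGCCC, also with 1 mismatch. Mdm2 had its decamer at -186 (GAACTTGCCT) and Ei24 at -10 (GGGCATGCCC). A second annotated start of Cdkn1a had no match in its window. Of the other members that fell in migratory TDLN, Polk and Gadd45a also had a match. Btg2, Plk2, Pmaip1, Trp53inp1, Phlda3 and Mdm4 had none in the windows at hand. Of the 32 members, 26 had 36 windows in the table; 12 of these windows (33.3%), from 11 members, held the decamer, against 2745 of all 32851 windows (8.36%). A match describes the letters of the window and is not a measured site. The members were chosen as genes of the p53 pathway, so a higher share could be expected from that choice and is no result of these libraries. The Aen windows overlap and share their match.

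Per unit of transcript length, Cdkn1a, the cyclin-dependent kinase inhibitor p21, was the most abundant member in migratory dendritic cells. In the LN PBS group it stood at 1480 ± 118 TPM (transcript level per unit of length, SD, n = 3), ahead of Btg2, an antiproliferative cofactor, at 636 ± 32.4, and the death genes Pmaip1 at 361 ± 42.7 and Bax at 327 ± 28.9. Zmat3 and the receptor gene Eda2r were last there, at 1.47 and 1.22 TPM. In resident dendritic cells of the same node and treatment Btg2 was first, at 1130 ± 44.8 TPM, and Cdkn1a was sixth, at 123 ± 10.1 TPM. Over the 16 groups, each cell type being scaled within its own 12 libraries and the macrophage and dendritic tables having been made separately, the highest mean CPM of a member fell in a migratory dendritic cell group for 14 members, in a medullary group for 10, and in a subcapsular and a resident group for 4 each.

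**Figure D1:**
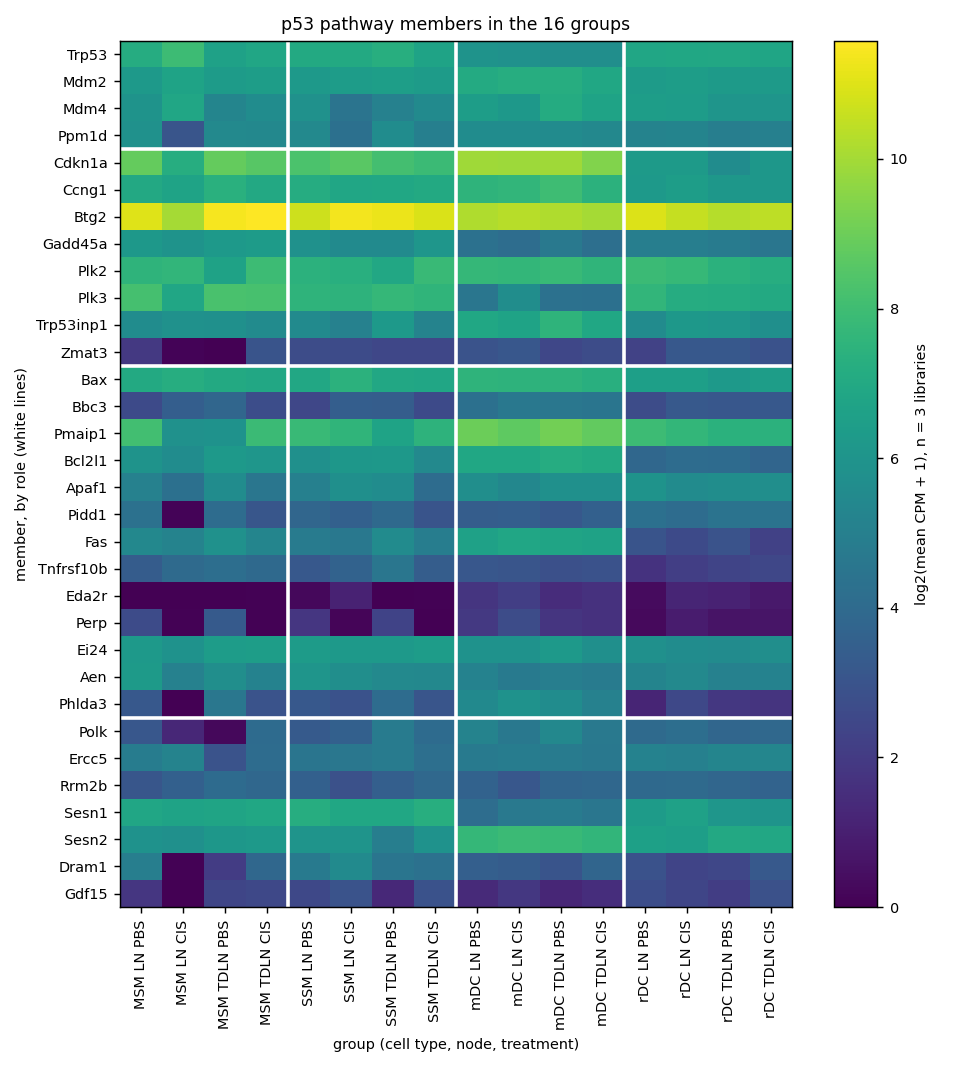
Mean level of each of the 32 members in the 16 groups, as log2 of mean CPM + 1 over 3 libraries, with members in rows ordered by role and groups in columns by cell type, node and treatment. Btg2 is bright in every group (means from 1030 to 3060 CPM), while Cdkn1a and Fas are bright in migratory and dark in resident dendritic cells.

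In migratory dendritic cells of the TDLN, cisplatin was accompanied by lower levels of 12 of the 30 members tested. The cell cycle inhibitor Cdkn1a, the cyclin Ccng1, the p53 cofactor Trp53inp1, the ligase Mdm2, the death gene Pmaip1 and the growth regulator Phlda3 all fell, by 0.28 to 0.64 on the log2 scale. Of 30 members tested, 12 fell and 1, the autophagy gene Dram1, rose at an adjusted p below 0.05; of all 12519 genes tested 27.3% passed, 13.2% lower and 14.1% higher. The direction was judged by the sign of the log2 fold change. Trp53 RNA itself moved by -0.02 ± 0.0854 (adjusted p = 0.881).

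Cdkn1a stood at 1040, 959 and 935 CPM in the 3 TDLN PBS libraries and at 662, 697 and 658 CPM in the TDLN CIS libraries. The groups did not overlap, and the gene fell by 0.54 ± 0.0639 (log2 ± SE, adjusted p = 1.52e-06). Reads of an opposite-strand transcript, AC167363.2, overlap Cdkn1a; whether the authors' counting used strand is not given in the sources used here, so a share of its counts could belong to that gene. Ccng1 was at 251, 255 and 261 CPM with PBS and at 175, 175 and 174 CPM with cisplatin, again without overlap and with libraries that differed little within each group. Its change was -0.55 ± 0.0557 (adjusted p = 1.85e-07), the smallest adjusted p of the tested members in this comparison. Trp53inp1, which promotes p53-dependent death and autophagy, was at 181, 173 and 198 CPM and then at 105, 115 and 135 CPM, a fall of 0.64 ± 0.084 (adjusted p = 6.04e-06) with no overlap.

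Phlda3, a repressor of the survival kinase Akt, had 50.1, 49.1 and 45.5 CPM with PBS and 33.4, 30.9 and 33.8 CPM with cisplatin. All 3 treated libraries were below all 3 controls, by -0.56 ± 0.111 (adjusted p = 0.000643). Mdm2 fell less, from 148, 146 and 143 CPM to 121, 121 and 118 CPM, again without overlap (-0.28 ± 0.0626, adjusted p = 0.00174). Its partner Mdm4 was at 130, 136 and 154 CPM and then at 106, 99.2 and 108 CPM (-0.43 ± 0.0749, adjusted p = 0.000178). Both inhibitors of p53 were therefore lower in every treated library than in every control library.

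Among the genes of cell death, Pmaip1, the BH3-only protein NOXA, was at 554, 542 and 559 CPM with PBS and at 425, 453 and 460 CPM with cisplatin. It fell by 0.31 ± 0.0719 (adjusted p = 0.00275), and its groups did not overlap. Bbc3, the BH3-only protein PUMA, had 22.6, 24.2 and 23.6 CPM against 21.9, 22 and 21.7 CPM, a difference of -0.10 ± 0.162 (adjusted p = 0.688). For the pore-forming protein gene Bax the values were 183, 176 and 169 CPM and then 170, 142 and 156 CPM (-0.18 ± 0.0705, adjusted p = 0.0675). The groups of Bax overlapped by 1 library, and neither gene passed the test. The death receptor gene Fas was at 102, 108 and 107 CPM with PBS and 101, 94.4 and 104 CPM with cisplatin (-0.08 ± 0.0733, adjusted p = 0.431), with overlap.

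Trp53 was at 49.5, 55.1 and 52.7 CPM with PBS and at 50.9, 51.1 and 53.1 CPM with cisplatin, so its groups overlapped. Sesn2, a stress-induced inhibitor of the growth kinase mTORC1, had 222, 223 and 220 CPM and then 192, 204 and 194 CPM; its groups did not overlap but the change of -0.17 ± 0.0672 did not pass (adjusted p = 0.0599). Eda2r, a TNF receptor family member, and Gdf15, a secreted stress cytokine, were below the count filter in migratory dendritic cells, at 1.28 to 4.2 and 0.687 to 3.7 CPM over the 12 libraries, and were not tested.

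Further members that fell without overlap were led by Polk, a DNA polymerase that copies past lesions, at 38.4, 44.1 and 41 CPM with PBS and 23.6, 23.7 and 25.9 CPM with cisplatin (-0.76 ± 0.117, adjusted p = 4.65e-05). Ei24, a membrane protein of the endoplasmic reticulum, went from 72.1, 77.4 and 76.2 CPM to 50.6, 58 and 52.8 CPM (-0.49 ± 0.0844, adjusted p = 0.000167). Gadd45a, a DNA damage sensor, had 25.8, 23 and 25.3 CPM and then 18.2, 17.9 and 17.9 CPM (-0.45 ± 0.139, adjusted p = 0.0169). An opposite-strand transcript, E230016M11Rik, overlaps Gadd45a. The kinase gene Plk2 and Btg2 fell by 0.26 ± 0.0617 and 0.18 ± 0.043 (adjusted p = 0.00306 and 0.00315). Dram1 alone rose, from 6.38, 6.87 and 8.12 CPM to 8.77, 15.8 and 13.5 CPM (0.82 ± 0.215, adjusted p = 0.00626). Leaving out migratory TDLN CIS replicate 2 took Dram1 to 0.62 with an adjusted p of 0.0761 and Gadd45a to an adjusted p of 0.0532; the other 11 calls passed without any 1 of the 12 libraries.

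The median log2 difference of the 30 members was -0.18, against -0.01 over all genes tested, and 17 members did not overlap between the groups, where 43.7% of all genes did not. Scaling over 24 dendritic libraries in place of 12 would lower every value of this comparison by 0.12. The TDLN PBS group has the deep libraries; with these thinned to about the depth of the others, 14 members were called, among them the 13. Stress genes that rise during tissue digestion, such as Fos and Jun, moved along with the module: their summed level was 7120 to 7720 CPM with PBS and 5300 to 5770 CPM with cisplatin, 8 of 10 fell, and their part in the result was not tested. B cell markers summed to 306 to 325 CPM with PBS and 488 to 510 CPM with cisplatin, and macrophage markers to 789 to 796 and 843 to 923 CPM. Dendritic cell markers were at 19700 to 20700 and 18900 to 20300 CPM, with overlap. The part of these cell types was not tested either.

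**Figure D2:**
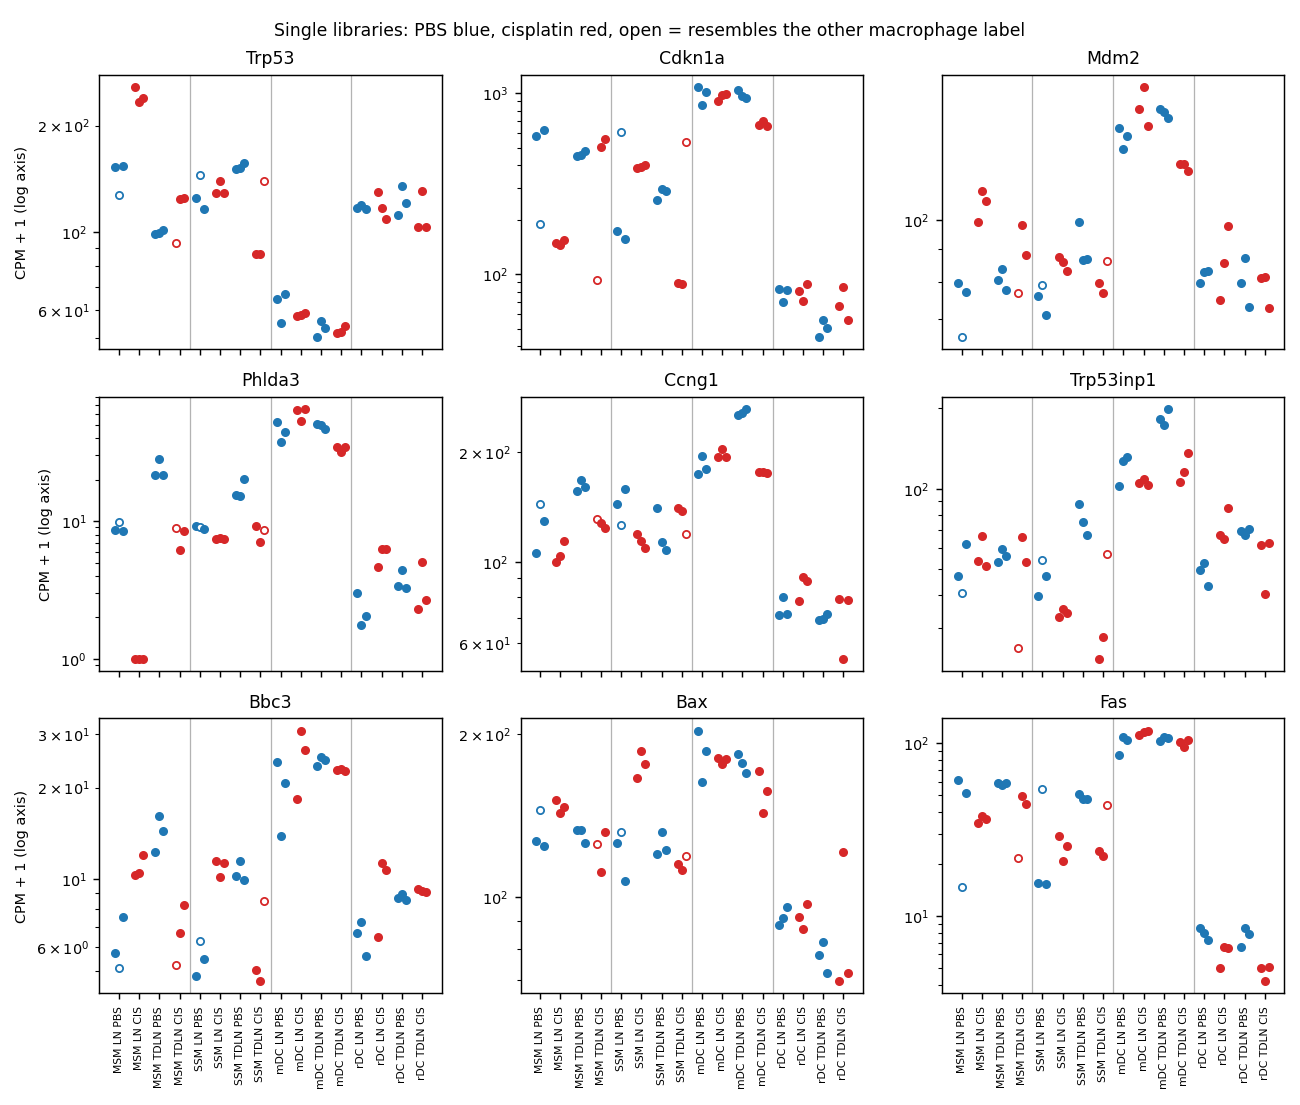
Level of 9 members in each of the 48 libraries, as CPM + 1 on a log axis, with groups on the horizontal axis, PBS in blue, cisplatin in red and open symbols for the 4 macrophage libraries that resemble the other label. In migratory TDLN the red points of Cdkn1a, Mdm2, Phlda3, Ccng1 and Trp53inp1 lie below the blue ones (Cdkn1a 658 to 697 against 935 to 1040 CPM), while those of Trp53 and Fas overlap.

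In migratory dendritic cells of the LN, cisplatin was accompanied by changes of members in both directions. Plk3, a stress-responsive polo-like kinase, rose most, and Sesn1, Phlda3 and Btg2 rose by less, while Polk and Pmaip1 fell. In all, 4 of 30 members rose and 2 fell, where 11% of all genes were called, 6.15% higher and 4.82% lower; the median of the members was -0.02 and that of all genes -0.01. Plk3 was at 20.9, 21.1 and 24.8 CPM with PBS and at 43.4, 41.6 and 63.8 CPM with cisplatin. The groups did not overlap, and the rise was 1.13 ± 0.173 (adjusted p = 7.1e-05). In the same comparison, B cell markers summed to 187 to 200 CPM with PBS and 366 to 406 CPM with cisplatin. Macrophage markers were at 878 to 940 and 1280 to 1350 CPM, and dendritic cell markers at 22800 to 23800 and 20900 to 22900 CPM. The part of these cell types in the result was not tested.

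Phlda3 had 51.2, 36.6 and 43.7 CPM with PBS and 62.6, 52 and 64.2 CPM with cisplatin (0.42 ± 0.122, adjusted p = 0.0247). Sesn1, a relative of Sesn2, had 18.6, 16.5 and 15.4 CPM and then 28.7, 23.6 and 22.6 CPM (0.58 ± 0.172, adjusted p = 0.0318). For Polk the values were 32.9, 39.7 and 33.8 CPM and 23.7, 27.4 and 21.4 CPM (-0.54 ± 0.14, adjusted p = 0.0131). None of these 3 overlapped between groups. Btg2 rose by 0.14 ± 0.044 (adjusted p = 0.0424) from 1150, 1190 and 1230 CPM to 1330, 1290 and 1310 CPM, without overlap. Pmaip1, at 419, 561 and 511 CPM and then 411, 444 and 377 CPM, fell by 0.27 ± 0.0773 (adjusted p = 0.0259), although 1 control library lay among the treated ones. Plk3 alone passed whichever library was left out: the count of 6 became 1 without migratory LN CIS replicate 1, 2 without LN CIS replicate 3 or LN PBS replicate 2, and 3 without LN PBS replicate 3.

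The other core members did not pass in this node. Cdkn1a was at 1080, 862 and 1010 CPM with PBS and at 907, 979 and 987 CPM with cisplatin, overlapping widely (-0.04 ± 0.0652, adjusted p = 0.745). Mdm2 was at 138, 128 and 134 CPM and then at 148, 160 and 139 CPM, without overlap (0.16 ± 0.0706, adjusted p = 0.161). Trp53 had 63.6, 54.2 and 65.9 CPM and then 56.8, 57.1 and 58 CPM (-0.10 ± 0.0988, adjusted p = 0.576). Neither p53 RNA nor these targets passed the test.

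Ccng1 was at 173, 194 and 179 CPM with PBS and 192, 203 and 192 CPM with cisplatin (0.11 ± 0.0633, adjusted p = 0.311). Trp53inp1 was at 101, 126 and 130 CPM and 104, 108 and 102 CPM (-0.18 ± 0.102, adjusted p = 0.307), and Sesn2 at 197, 200 and 230 CPM and 222, 220 and 263 CPM (0.16 ± 0.0744, adjusted p = 0.189). All 3 genes overlapped between the groups. The death genes gave 202, 162 and 185 against 180, 175 and 179 CPM for Bax (-0.05 ± 0.0783, adjusted p = 0.77) and 23.3, 12.9 and 19.7 against 17.3, 29.7 and 25.5 CPM for Bbc3 (0.33 ± 0.201, adjusted p = 0.34), both with overlap. Fas was at 84.5, 108 and 103 CPM and then at 111, 115 and 117 CPM, without overlap, and did not pass (0.22 ± 0.0856, adjusted p = 0.0995).

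The difference of the cisplatin effect between the nodes was itself tested in migratory dendritic cells, as TDLN effect minus LN effect. It was below 0 at an adjusted p below 0.05 for 10 of 30 members and above 0 for none, where 15.6% of all genes were called (7.17% below 0, 8.43% above). Ccng1 differed by -0.66 ± 0.0843 (adjusted p = 9.27e-06), Cdkn1a by -0.50 ± 0.0913 (adjusted p = 0.000622), Phlda3 by -0.98 ± 0.165 (adjusted p = 0.000252) and Plk3 by -1.16 ± 0.24 (adjusted p = 0.0019). Phlda3 rose in one node and fell in the other, whereas Plk3 rose in the LN and was at 18.6, 19.8 and 18.1 against 19.9, 14.4 and 21 CPM in the TDLN. Mdm2, Trp53inp1, Ei24, Sesn1, Sesn2 and Btg2 made up the rest of the 10.

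With PBS alone, migratory dendritic cells of the TDLN held more of 7 members than those of the LN, and less of none (29.1% of all genes were called, 14.8% higher and 14.3% lower). Mdm4 was higher by 0.71 ± 0.0815, Sesn1 by 0.67 ± 0.152, Trp53inp1 by 0.64 ± 0.0879 and Ccng1 by 0.50 ± 0.0576, with Gadd45a, Ei24 and Bcl2l1, the survival gene BCL-XL, higher by 0.26 to 0.39. These values and the cisplatin effect in the TDLN share the TDLN PBS libraries. Side by side, Ccng1 had a mean of 182 ± 11.2 CPM (SD, n = 3) in LN PBS, 256 ± 4.86 in TDLN PBS and 175 ± 0.635 in TDLN CIS, and Trp53inp1 had 119 ± 15.5, 184 ± 12.8 and 118 ± 15.2. Cdkn1a did not follow this order, with 985 ± 111, 979 ± 56.3 and 672 ± 21.2 CPM.

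In resident dendritic cells of the LN, cisplatin was accompanied by a rise of Phlda3, Zmat3, Trp53inp1 and Sesn1 and a fall of Plk3 and Btg2. These 4 of 30 members higher and 2 lower compare with 17.9% of all genes called, 10.7% higher and 7.17% lower. Between the groups 13 members did not overlap, as did 41.8% of all genes; the median of the members was 0.01, as over all genes. Cdkn1a and Mdm2 did not pass the test. Phlda3 had 2, 0.756 and 1.05 CPM with PBS and 3.66, 5.29 and 5.26 CPM with cisplatin, a rise of 1.86 ± 0.443 (adjusted p = 0.00827) at a low level, with no overlap. Trp53inp1 went from 48.7, 51.6 and 42.3 CPM to 66.2, 63.8 and 83.7 CPM (0.59 ± 0.143, adjusted p = 0.00923). Zmat3, an RNA-binding protein, went from 4.4, 4.54 and 2.8 CPM to 9.76, 7.61 and 6.65 CPM (1.03 ± 0.283, adjusted p = 0.018). Both were higher in every treated library.

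Sesn1 had 77.8, 82.7 and 79.8 CPM and then 97.3, 104 and 95.3 CPM (0.30 ± 0.0992, adjusted p = 0.0424). Plk3, which rose in migratory cells of this node, fell here (the difference between the types was not tested), from 194, 193 and 208 CPM to 149, 140 and 143 CPM (-0.46 ± 0.0858, adjusted p = 0.00157). Btg2 fell from 1960, 2060 and 1980 CPM to 1460, 1500 and 1560 CPM (-0.41 ± 0.0664, adjusted p = 0.000554). No group of these 3 genes overlapped. Phlda3, Plk3 and Btg2 passed whichever library was left out, and without resident LN PBS replicate 3 the count was 3. Summed NK cell markers were 6.43 to 11.6 CPM with PBS and 87.7 to 93.7 CPM with cisplatin here, and 7 of 10 dendritic cell markers fell; their part in the result was not tested.

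Cdkn1a had 82, 69.4 and 81 CPM with PBS and 79.9, 70.1 and 86.7 CPM with cisplatin (0.03 ± 0.131, adjusted p = 0.916). Mdm2 had 78.6, 81.9 and 82.2 CPM and 74.1, 84.7 and 96.7 CPM (0.08 ± 0.102, adjusted p = 0.669), and Trp53 had 116, 118 and 115 CPM and 129, 116 and 108 CPM (0.02 ± 0.102, adjusted p = 0.943). All 3 overlapped between the groups. Ccng1, at 70.5, 79.2 and 71.1 CPM and then 77.2, 90 and 87.8 CPM, did not pass (0.21 ± 0.12, adjusted p = 0.255), nor did Bbc3, at 5.64, 6.24 and 4.62 CPM and then 5.49, 10.3 and 9.7 CPM (0.63 ± 0.232, adjusted p = 0.0714).

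Pmaip1 was lower in each treated library, at 239, 254 and 242 CPM with PBS and 173, 192 and 238 CPM with cisplatin, without passing (-0.28 ± 0.119, adjusted p = 0.115). Bax had 87.6, 90.2 and 94.8 CPM and 90.6, 86 and 95.8 CPM, and Sesn2 had 102, 87 and 99.3 CPM and 94, 88 and 85 CPM, both with overlap. Fas was low in these cells, at 7.57, 6.99 and 6.23 CPM with PBS and 3.97, 5.62 and 5.54 CPM with cisplatin (adjusted p = 0.199). Gdf15 had 6.19, 5.2 and 5.6 CPM and 3.66, 4.63 and 4.71 CPM (adjusted p = 0.325). Eda2r, at 0.189 to 2.14 CPM over the 12 libraries, and Perp were below the count filter and not tested.

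In resident dendritic cells of the TDLN no member passed with cisplatin, where 1.01% of all genes did, 0.399% higher and 0.613% lower. At an unadjusted p below 0.05 there were 5 of 30 members, against 9.44% of all genes, and DESeq2 also called none. Cdkn1a had the lowest adjusted p: it was at 43.9, 54.5 and 49.2 CPM with PBS and at 65.8, 83.6 and 54.7 CPM with cisplatin. Its groups touched without overlapping, 54.5 against 54.7 CPM, and the difference was 0.48 ± 0.148 (adjusted p = 0.19). Gdf15 had 2.93, 4.54 and 2.62 CPM and then 6.62, 6.43 and 6.08 CPM (0.95 ± 0.3, adjusted p = 0.21), and Fas had 5.58, 7.57 and 6.88 CPM and then 3.97, 3.21 and 4.06 CPM (-0.82 ± 0.285, adjusted p = 0.283). Neither overlapped between the groups.

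Trp53inp1, which rose in the LN, was at 68.3, 65.8 and 69.5 CPM with PBS and 60.5, 39.4 and 61.5 CPM with cisplatin in the TDLN (-0.34 ± 0.156, adjusted p = 0.494). The difference between the nodes passed for it (-0.93 ± 0.211, adjusted p = 0.0137). It passed also for Btg2 (0.52 ± 0.0941, adjusted p = 0.00225) and Dram1 (1.62 ± 0.423, adjusted p = 0.0328), the only other members among 30, where 5.31% of all genes were called (2.62% above 0, 2.7% below). The count of 3 became 1 without resident LN CIS replicate 3 and 8 without resident TDLN CIS replicate 2.

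The remaining core members of the TDLN gave overlapping groups, except for Bbc3. Trp53 had 111, 134 and 120 CPM with PBS and 102, 130 and 102 CPM with cisplatin, and Mdm2 had 78.7, 86.2 and 72.1 CPM and 80.1, 80.6 and 72 CPM. Phlda3 had 2.39, 3.4 and 2.29 CPM and 1.32, 4.09 and 1.69 CPM, and Ccng1 had 68.1, 68.5 and 71.1 CPM and 78.1, 53.2 and 77.7 CPM. For Bax the values were 76.9, 81.3 and 71.1 CPM and 68.8, 120 and 71.3 CPM, for Pmaip1 168, 166 and 175 CPM and 205, 140 and 179 CPM, and for Sesn2 119, 135 and 120 CPM and 112, 138 and 116 CPM. Resident TDLN CIS replicate 2 was the most distant library for Ccng1, Bax and Pmaip1. Bbc3 was at 7.71, 7.94 and 7.54 CPM and then 8.27, 8.18 and 8.11 CPM, a difference of 0.08 ± 0.262 (adjusted p = 0.967).

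**Figure D3:**
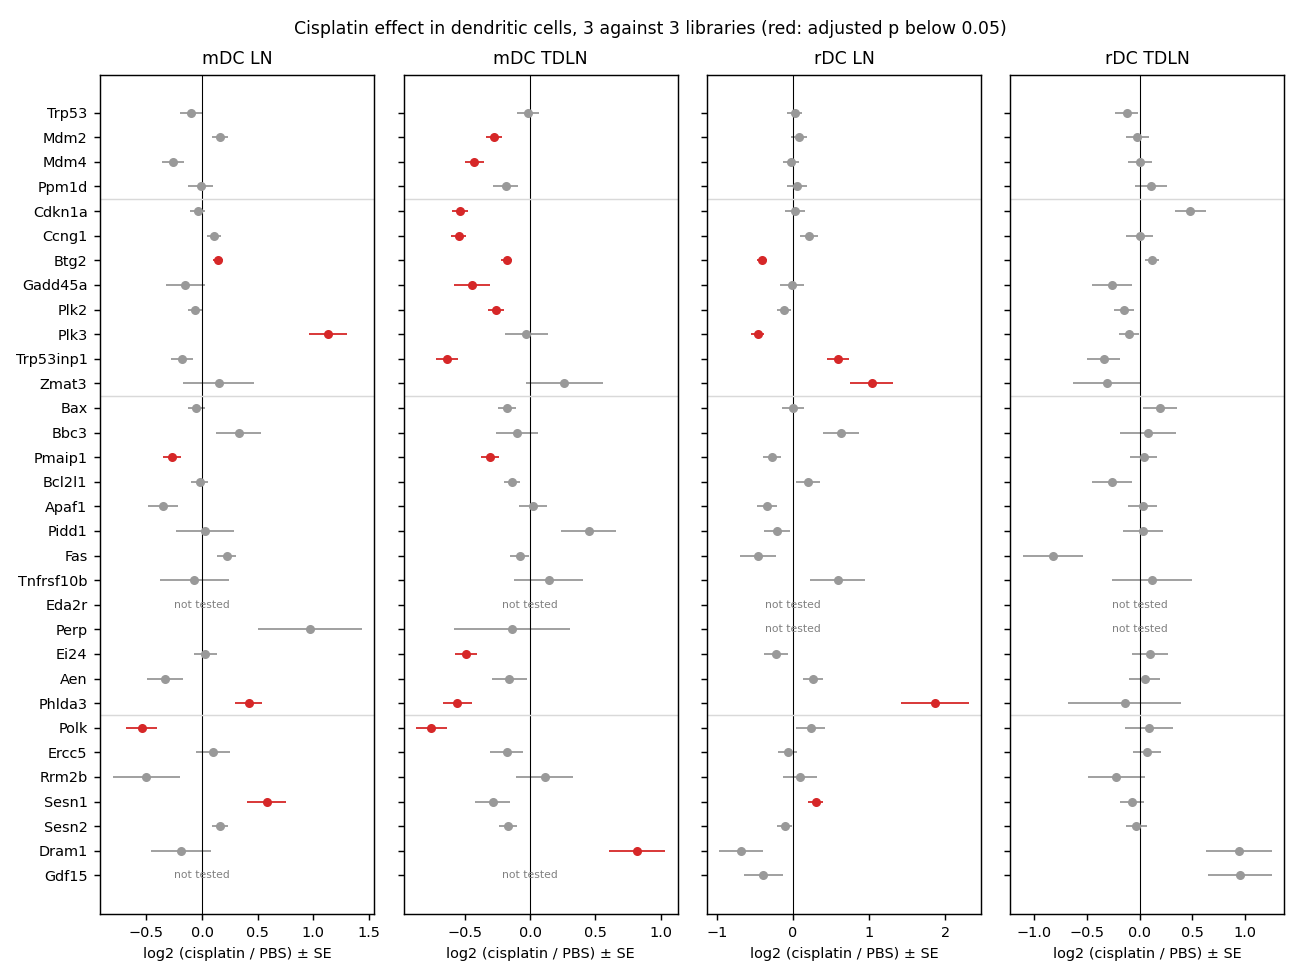
Cisplatin against PBS for each member in the 4 dendritic cell comparisons, as log2 fold change ± SE from 3 against 3 libraries, with red points for an adjusted p below 0.05. The red points number 6 in migratory LN, 13 in migratory TDLN (12 left of 0), 6 in resident LN and 0 in resident TDLN.

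With PBS, resident dendritic cells of the TDLN held less Cdkn1a than those of the LN (-0.66 ± 0.139, adjusted p = 0.00234; 49.2 ± 5.3 against 77.4 ± 7 CPM, SD, n = 3). Btg2, Plk3, Pmaip1, Plk2, Mdm4 and Gdf15 were lower too, by 0.42 to 0.78 in size, and Zmat3, Trp53inp1 and Sesn2 were higher by 1.03 ± 0.286, 0.52 ± 0.145 and 0.37 ± 0.0982. That makes 7 of 30 members lower and 3 higher, where 27% of all genes were called (12.1% lower, 14.9% higher). The LN PBS group is the deep one here, and with its libraries thinned the count was 8. Summed plasmacytoid dendritic cell markers were 2860 to 2930 CPM in the TDLN and 1390 to 1560 CPM in the LN, T cell markers 1040 to 1090 and 429 to 493 CPM, and B cell markers 2530 to 2670 and 4150 to 4720 CPM; their part in the result was not tested.

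Most members differed between the 2 dendritic cell types. Averaged over the 4 conditions, 21 of 32 members were higher in migratory and 7 lower, where 74.4% of all genes were called (35.6% higher, 38.9% lower); the median of the members was 0.93 and that of all genes -0.06. The death receptor gene Fas, Phlda3, Cdkn1a and Bcl2l1 were higher by 3.46 or more on the log2 scale, and Trp53 itself was lower. For these levels all 24 dendritic libraries were scaled together, and 16 members did not overlap between the types (30.9% of all genes). Scaled within each type, summed B cell markers were 187 to 510 CPM in migratory and 2300 to 4720 CPM in resident libraries. Plasmacytoid dendritic cell markers were at 14.9 to 51.2 and 1390 to 3050 CPM, and dendritic cell markers at 18900 to 23800 and 3100 to 3950 CPM. The part of these cell types in the differences between migratory and resident libraries was not tested.

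Cdkn1a ranged from 720 to 1230 CPM in 12 migratory libraries, with a median of 1080, and from 39 to 77.9 CPM in 12 resident libraries, with a median of 63.1. The lowest migratory library was far above the highest resident one, and the difference was 4.03 ± 0.0542 (adjusted p = 3.06e-31); within the 4 conditions it ran from 3.59 to 4.74. Fas had a median of 120 CPM (88.4 to 129) in migratory and 4.97 CPM (2.83 to 6.96) in resident cells, a difference of 4.57 ± 0.0691 (adjusted p = 5.03e-30). Phlda3 had medians of 53.9 CPM (33.4 to 70.7) and 2.09 CPM (0.707 to 4.73), a difference of 4.45 ± 0.114 (adjusted p = 2.39e-24). Bcl2l1 had medians of 137 CPM (123 to 179) and 12.9 CPM (9.66 to 16.1), a difference of 3.46 ± 0.0529 (adjusted p = 6.63e-30). In none of these 4 genes did the types overlap.

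Trp53 went the other way. Its median was 62.2 CPM (55.3 to 70.5) in migratory and 107 CPM (91.2 to 119) in resident cells, without overlap, a difference of -0.77 ± 0.048 (adjusted p = 9.82e-15) that ran from -0.82 to -0.72 within conditions. Plk3 was also lower in migratory cells, with medians of 23 CPM (15.6 to 70.2) and 125 CPM (101 to 192) and a difference of -2.29 ± 0.0634 (adjusted p = 1.68e-23). Sesn1 was lower by -1.46 ± 0.0625, and Gdf15, Pidd1, Gadd45a and Btg2 made up the other lower members.

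Among the regulators, Mdm2 was higher in migratory cells by 1.06 ± 0.0429, with medians of 148 and 72.3 CPM, and Mdm4 and the phosphatase gene Ppm1d by 0.69 ± 0.0517 and 0.79 ± 0.0639. Ccng1 was higher by 1.74 ± 0.05 and Trp53inp1 by 1.42 ± 0.0674. Of the death genes, Bbc3 was higher by 1.88 ± 0.107, Pmaip1 by 1.58 ± 0.0582, Bax by 1.31 ± 0.0611 and the receptor gene Tnfrsf10b by 1.28 ± 0.16, beside the survival gene Bcl2l1. Genes that promote and genes that oppose death were thus higher in libraries of the same cell type. Aen, Ercc5, Rrm2b and Zmat3 did not pass. Within single conditions 18 to 22 members were higher and 5 to 7 lower, and the shares of all genes there are not given here. Of the called members Apaf1, Btg2 and Gadd45a changed sign between conditions, as did the uncalled Aen, Ercc5, Rrm2b and Zmat3.

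Cell cycle genes stood lower in migratory cells: of 20 tested, 18 were lower and 1 higher, with a median of -0.90. Of 27 further p53 targets outside the module, 13 were higher and 10 lower (median 0.34). By Pearson correlation over the 8 dendritic group means of log2 CPM, the 5 genes outside the module with the pattern most like Cdkn1a were Vcam1 (r = 0.9987), Tmem159 (0.9982), Ehf (0.9978), B4galnt1 (0.9976) and Kmt5c (0.9974), all of which share the libraries and the wide gap between the types with it.

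**Figure D4:**
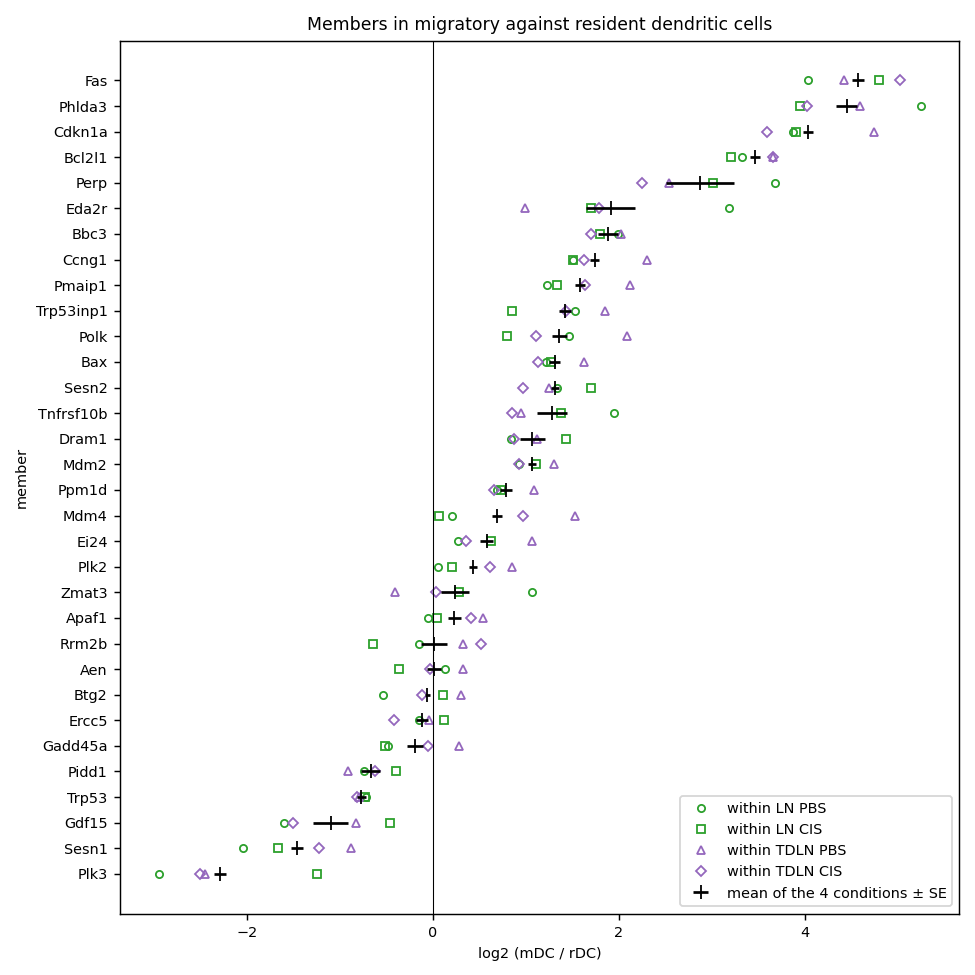
Migratory against resident dendritic cells for each member, as the log2 difference averaged over the 4 conditions (black, ± SE) and within each condition (open symbols, 3 against 3 libraries), ordered by size. Fas, Phlda3, Cdkn1a and Bcl2l1 lie beyond 3 in every condition, and Trp53 lies below 0 in every condition.

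The other gene lists of the pathway are given here for the dendritic cells. In migratory TDLN, 7 of 18 genes that regulate p53 fell with cisplatin and 1 rose (median -0.12): the DNA damage kinases Prkdc and Atr fell by 0.93 ± 0.155 and 0.49 ± 0.114, the acetyltransferase Ep300 by 0.31 ± 0.0767, and the deubiquitinase Usp7 rose by 0.61 ± 0.0982. Usp7 also passed in the 2 LN comparisons, at 0.73 ± 0.145 in migratory and 0.43 ± 0.121 in resident cells, and was the only regulator called there. Of 23 further p53 targets in migratory TDLN, 3 rose, among them Fdxr (0.99 ± 0.19) and Pml (0.59 ± 0.0788), and 3 fell, among them Ephx1 (-0.57 ± 0.0667), with a median of 0.05; these 6 of 23 stand beside 27.3% of all genes called. In resident LN, where 17.9% of all genes were called, 4 of 26 rose, led by Sfn (0.69 ± 0.217) and Slc19a2 (0.63 ± 0.166), and Cd80 fell by 1.15 ± 0.137.

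Cell cycle genes rose in migratory TDLN with cisplatin, in the comparison in which Cdkn1a fell, and a link between them was not tested. Of 19 tested, 15 rose and 1 fell, with a median of 1.13, beside the share of all genes given above for this comparison. Ube2c rose by 2.24 ± 0.329, Ccnb2 by 1.90 ± 0.278, Plk1 by 1.74 ± 0.349 and Ccnb1 by 1.70 ± 0.268, while Mki67 fell by 0.54 ± 0.0847. In resident LN 7 of 20 fell and none rose (median -0.41), among them Cdk1 (-0.83 ± 0.216) and Ccnb2 (-0.73 ± 0.214). Of 10 genes of the integrated stress response in migratory TDLN, 3 rose and 2 fell (median 0.04), while the summed level of the list was 3330 to 3460 CPM with PBS and 2390 to 2640 CPM with cisplatin, without overlap.

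In the macrophages the members varied between libraries of the same label where a group holds 1 of the 4 that resemble the other label, so the counts of each comparison are given with and without those. The 4 were picked out by these same data, and without them their groups hold 2 libraries each. The SE and p-values without the 4 libraries thus rest on few libraries and may reflect technical spread. Cisplatin was accompanied by changes in both directions in each of the 4 comparisons. With all libraries, 4 of 31 members rose and 12 fell in medullary LN (43.4% of all genes called, 16.6% higher and 26.8% lower), and 6 rose and 4 fell in medullary TDLN (37.1%, 25.6% higher and 11.5% lower). In subcapsular LN 3 rose and 1 fell (13.3%, 5.85% higher and 7.42% lower), and in subcapsular TDLN 2 rose and 7 fell (23%, 13% higher and 9.95% lower). The members whose groups did not overlap numbered 18, 14, 14 and 17, beside 60.6%, 52.6%, 39.8% and 42.6% of all genes. Without the 4 libraries the calls were 24, 25, 21 and 25 of 31, while 74.0%, 69.0%, 60.0% and 71.1% of all genes were called. Eda2r was below the count filter in both macrophage types, at 0 to 0.127 CPM in medullary and 0 to 1.69 CPM in subcapsular libraries.

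In medullary LN Cdkn1a was at 579, 189 and 623 CPM with PBS and at 148, 144 and 154 CPM with cisplatin, the low control being the library that resembles the subcapsular label. It fell by 1.64 ± 0.579 (adjusted p = 0.0418), a call lost in 8 of 12 fits with a library left out (adjusted p up to 0.12), and by 2.01 ± 0.0599 (adjusted p = 1.12e-15) without the 4 libraries. In medullary TDLN it was at 449, 455 and 476 CPM and then at 91.6, 504 and 560 CPM (-0.26 ± 0.564, adjusted p = 0.766), and without the 4 libraries the direction turned to 0.21 ± 0.0584 (adjusted p = 0.00373).

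In subcapsular LN Cdkn1a was at 171, 610 and 155 CPM with PBS and at 385, 389 and 401 CPM with cisplatin (0.33 ± 0.7, adjusted p = 0.81); without the 4 libraries it was higher by 1.29 ± 0.0686 (adjusted p = 6.9e-11). Subcapsular TDLN had 257, 293 and 287 CPM and then 88.2, 86.7 and 539 CPM (-0.23 ± 0.7, adjusted p = 0.842), and -1.66 ± 0.0722 (adjusted p = 2.76e-12) without them. The level of Cdkn1a in subcapsular LN PBS replicate 2, 610 CPM, lay beside medullary LN PBS replicates 1 and 3.

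In medullary LN, where summed macrophage markers were lower in the treated libraries and Siglec1 and Adgre1 were near 0, Phlda3 was at 7.68, 8.81 and 7.44 CPM with PBS and had no count in the 3 cisplatin libraries, at least 61.2-fold lower against a floor of 3 counts over the group. Dram1 went from 31.1, 23.2 and 36 CPM to 0.146, 0 and 0 CPM (-8.98 ± 0.793, adjusted p = 2.26e-05), and Pidd1, the scaffold of a death-inducing complex, from 24.2, 10.5 and 21.3 CPM to 0.292, 0 and 0 CPM (-7.49 ± 0.744, adjusted p = 4.54e-05). All 3 genes separated the groups. Beside the macrophage markers, of which 11 of 12 fell, summed dendritic cell markers were 552 to 1770 CPM with PBS and 4460 to 4710 CPM with cisplatin, B cell markers 523 to 4350 and 5210 to 5370 CPM, and mast cell markers 135 to 1120 and 2020 to 2070 CPM. Summed NK cell markers were 11.6 to 38.8 and 248 to 273 CPM, and neutrophil markers 313 to 4880 and 83.3 to 86.1 CPM; the part of these cell types in the result was not tested. Ppm1d fell by 2.92 ± 0.404, Polk by 2.47 ± 0.62, Pmaip1 by 2.26 ± 0.378, Aen by 1.27 ± 0.228 and Apaf1, the core of the apoptosome, by 0.83 ± 0.205. Pmaip1 was at 290, 163 and 352 CPM with PBS and 53.3, 62.5 and 52.7 CPM with cisplatin.

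Of the 4 members that rose in medullary LN, Trp53 was at 152, 126 and 153 CPM with PBS and 256, 232 and 239 CPM with cisplatin (0.75 ± 0.136, adjusted p = 0.0017). Mdm4 rose from 62.1, 49.6 and 70.2 CPM to 109, 116 and 117 CPM (0.91 ± 0.182, adjusted p = 0.00301), Mdm2 from 78.7, 64.7 and 76.3 CPM to 98.2, 110 and 106 CPM (0.51 ± 0.124, adjusted p = 0.00765), and Bbc3 from 4.71, 4.13 and 6.52 CPM to 9.35, 9.46 and 11 CPM (0.96 ± 0.284, adjusted p = 0.0207). None of the 4 overlapped, and each passed without the 4 libraries too. Gdf15 was called as lower, but its 71 counts with PBS were all in medullary LN PBS replicate 2, which resembles the other label, and without that library both groups were at 0.

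The other core members of medullary LN did not pass with all libraries. Fas was at 60.4, 13.7 and 50.6 CPM and 33.5, 37 and 35.4 CPM (-0.23 ± 0.452, adjusted p = 0.699), Ccng1 at 105, 143 and 128 CPM and 98.8, 103 and 113 CPM, and Bax at 126, 144 and 123 CPM and 150, 142 and 146 CPM. Trp53inp1 was at 46.1, 39.8 and 60.9 CPM and 52.5, 65.6 and 50.2 CPM, and Sesn2 at 55.8, 61.9 and 59 CPM and 54.4, 51.9 and 57.9 CPM. All 5 overlapped between the groups. Zmat3 and Perp, a membrane protein of cell death, were also called as lower, at mean levels under 4 CPM. Zmat3 had 66 counts (7.18 CPM) in medullary LN PBS replicate 2, which resembles the other label. It was at 0.62 and 0.522 CPM in replicates 1 and 3 of that group. The Zmat3 call was lost in 4 of 12 fits with a library left out.

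In medullary TDLN, Polk was at 0.478, 0 and 0.135 CPM with PBS and at 16.6, 16.7 and 13.4 CPM with cisplatin, a rise of 6.12 ± 0.77 (adjusted p = 0.000235). Plk2 rose from 90.5, 108 and 101 CPM to 246, 241 and 241 CPM (1.28 ± 0.109, adjusted p = 2.16e-05), Dram1 from 4.3, 2.5 and 2.56 CPM to 23.4, 8.64 and 8.91 CPM (2.12 ± 0.496, adjusted p = 0.00775), and Ercc5, a nuclease of excision repair, from 6.33, 6 and 7.83 CPM to 21, 13.6 and 13.4 CPM (1.25 ± 0.258, adjusted p = 0.00409). Pmaip1 rose from 57.3, 60.1 and 59.4 CPM to 109, 315 and 292 CPM (2.02 ± 0.374, adjusted p = 0.00229). No group of these 5 genes overlapped. Zmat3 had no count with PBS and was at least 52.9-fold higher with cisplatin, at 2.23, 8.04 and 10.8 CPM.

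Phlda3 fell in medullary TDLN from 20.7, 27.2 and 20.8 CPM to 7.9, 5.16 and 7.51 CPM (-1.74 ± 0.271, adjusted p = 0.00161) and Bbc3 from 11.3, 15.1 and 13.4 CPM to 4.25, 5.64 and 7.25 CPM (-1.22 ± 0.284, adjusted p = 0.00772). Perp fell from 8.6, 7.87 and 9.99 CPM to 0, 0 and 0.127 CPM (-7.34 ± 1.14, adjusted p = 0.000821), and Apaf1 by 1.12 ± 0.204 (adjusted p = 0.00204). These 4 did not overlap, and all 10 calls of this comparison passed whichever library was left out, with 16 calls without medullary TDLN CIS replicate 1. Trp53 was at 97.7, 98.2 and 100 CPM with PBS and 92.4, 123 and 124 CPM with cisplatin, and Mdm2 at 79.7, 82.9 and 76.8 CPM and 75.9, 97 and 87.1 CPM; neither passed.

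The further core members of medullary TDLN did not pass. Ccng1 was at 155, 166 and 159 CPM and then 130, 127 and 123 CPM, without overlap (-0.34 ± 0.124, adjusted p = 0.054), and Fas at 57.6, 56.5 and 57.8 CPM and 20.6, 48.7 and 43.7 CPM, also without overlap (adjusted p = 0.323). Bax was at 132, 132 and 125 CPM and 124, 110 and 131 CPM, Sesn2 at 65.7, 71.1 and 67.6 CPM and 41.6, 89.3 and 89.9 CPM, and Trp53inp1 at 52, 58.4 and 54.8 CPM and 24.2, 64.7 and 52.1 CPM. Gdf15 was at 3.11, 3.37 and 6.34 CPM and 8, 2.52 and 3.31 CPM. These 4 overlapped, and the treated library that lay apart in Sesn2, Fas and Trp53inp1 was replicate 1. The cell cycle list rose here (14 of 20 higher, 1 lower), with summed neutrophil markers of 7820 to 8020 CPM with PBS and 744 to 5840 CPM with cisplatin. Summed macrophage markers were 23300 to 23600 and 8410 to 13100 CPM, and mast cell markers, of which 7 of 7 rose, 50.4 to 60.2 and 1900 to 3430 CPM; the part of these cell types in the member changes was not tested.

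In subcapsular LN, Mdm4 fell from 49.9, 64.7 and 56.4 CPM to 22.2, 19 and 22 CPM (-1.44 ± 0.186, adjusted p = 0.00185) and was the only 1 of the 4 called members to pass whichever library was left out. Bax rose from 125, 131 and 106 CPM to 165, 185 and 175 CPM (0.53 ± 0.111, adjusted p = 0.0127), Bbc3 from 3.82, 5.28 and 4.47 CPM to 10.5, 9.16 and 10.3 CPM (1.15 ± 0.295, adjusted p = 0.0297), and Apaf1 from 32.9, 30.5 and 32.6 CPM to 55, 51.4 and 55.9 CPM (0.76 ± 0.175, adjusted p = 0.0194). The groups of these 3 genes of mitochondrial cell death did not overlap. Phlda3 was at 8.21, 8.12 and 7.79 CPM and 6.42, 6.56 and 6.43 CPM, and Mdm2 at 75.1, 78.1 and 70.2 CPM and 86.5, 85 and 82.3 CPM, neither with overlap and neither called (adjusted p = 0.348 and 0.27). Summed macrophage markers were 13500 to 13700 CPM with PBS and 23700 to 24100 CPM with cisplatin. Summed melanoma lineage markers were 26 to 312 and 1600 to 1670 CPM, and mast cell markers 124 to 1050 and 39.3 to 44.3 CPM; the part of these in the result was not tested. The count of 4 became 11 without subcapsular TDLN CIS replicate 3, 1 without subcapsular LN CIS replicate 2 or 3 or LN PBS replicate 3, and 2 without LN CIS or LN PBS replicate 1.

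The rest of the core in subcapsular LN was not called. Trp53 was at 124, 144 and 115 CPM and 128, 138 and 128 CPM, Pmaip1 at 155, 356 and 173 CPM and 199, 187 and 188 CPM, Sesn2 at 65.1, 59.6 and 64.4 CPM and 59.5, 65 and 61.7 CPM, and Gdf15 at 7.35, 0.135 and 6.54 CPM and 6.11, 7.46 and 6.99 CPM, all with overlap. Ccng1, at 143, 125 and 157 CPM and 118, 113 and 108 CPM, and Trp53inp1, at 38.6, 52.9 and 46.2 CPM and 31.9, 34.5 and 33.3 CPM, did not overlap. Fas was at 14.6, 53.3 and 14.3 CPM and 28, 19.7 and 24.3 CPM: its difference of -0.19 ± 0.473 (adjusted p = 0.844) turned to 0.76 ± 0.135 (adjusted p = 0.000139) without the 4 libraries.

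In subcapsular TDLN, Apaf1 fell from 54.3, 47 and 43.6 CPM to 11.8, 16.4 and 20.1 CPM (-1.58 ± 0.179, adjusted p = 0.000505), Phlda3 from 14.5, 14.2 and 19.2 CPM to 8.28, 6.1 and 7.67 CPM (-1.12 ± 0.204, adjusted p = 0.00496), Pidd1 from 11.1, 15.2 and 16.8 CPM to 7.02, 6.4 and 7.35 CPM (-1.05 ± 0.246, adjusted p = 0.0138), and Trp53inp1 from 86.4, 74.1 and 66.1 CPM to 22, 26.7 and 55.7 CPM (-1.12 ± 0.297, adjusted p = 0.0231). Trp53 fell from 150, 151 and 156 CPM to 85.5, 85.7 and 138 CPM (-0.56 ± 0.18, adjusted p = 0.0463) and Bbc3 from 9.22, 10.5 and 8.94 CPM to 4.03, 3.64 and 7.46 CPM (-0.92 ± 0.293, adjusted p = 0.0454), and both of these calls were lost in 10 of 12 fits with a library left out. None of the 6 overlapped. Plk2 rose from 130, 127 and 114 CPM to 229, 229 and 236 CPM (0.90 ± 0.1, adjusted p = 0.000496) and Sesn2 from 25.3, 32.2 and 31.2 CPM to 40.6, 41.6 and 93.5 CPM (0.98 ± 0.281, adjusted p = 0.0306). Perp had 3.99 CPM in the pooled PBS libraries and no count with cisplatin, at least 37.2-fold lower. Summed mast cell markers, of which 7 of 7 rose, were 45.5 to 63.9 CPM with PBS and 1830 to 3410 CPM with cisplatin, and dendritic cell markers 652 to 713 and 1630 to 1930 CPM; their part in the result was not tested.

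The count of 9 became 17 without subcapsular TDLN CIS replicate 3, the library that resembles the medullary label and that stands apart in Cdkn1a, Trp53, Trp53inp1 and Sesn2. It was 5 without TDLN CIS replicate 2 or TDLN PBS replicate 1 and 4 without TDLN PBS replicate 2 or 3. Mdm2 was at 98.4, 85.7 and 85.9 CPM and 78.6, 75.8 and 85.3 CPM, Bax at 119, 131 and 121 CPM and 114, 111 and 118 CPM, Fas at 50.1, 46.6 and 46.4 CPM and 22.9, 21.2 and 42.8 CPM, and Gdf15 at 1.74, 1.93 and 0.857 CPM and 9.32, 7.28 and 3.07 CPM. None of these 4 overlapped, and none passed with all libraries. Ccng1, at 139, 112 and 107 CPM and 139, 137 and 118 CPM, and Pmaip1, at 130, 93.4 and 91.7 CPM and 122, 121 and 287 CPM, overlapped.

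**Figure D5:**
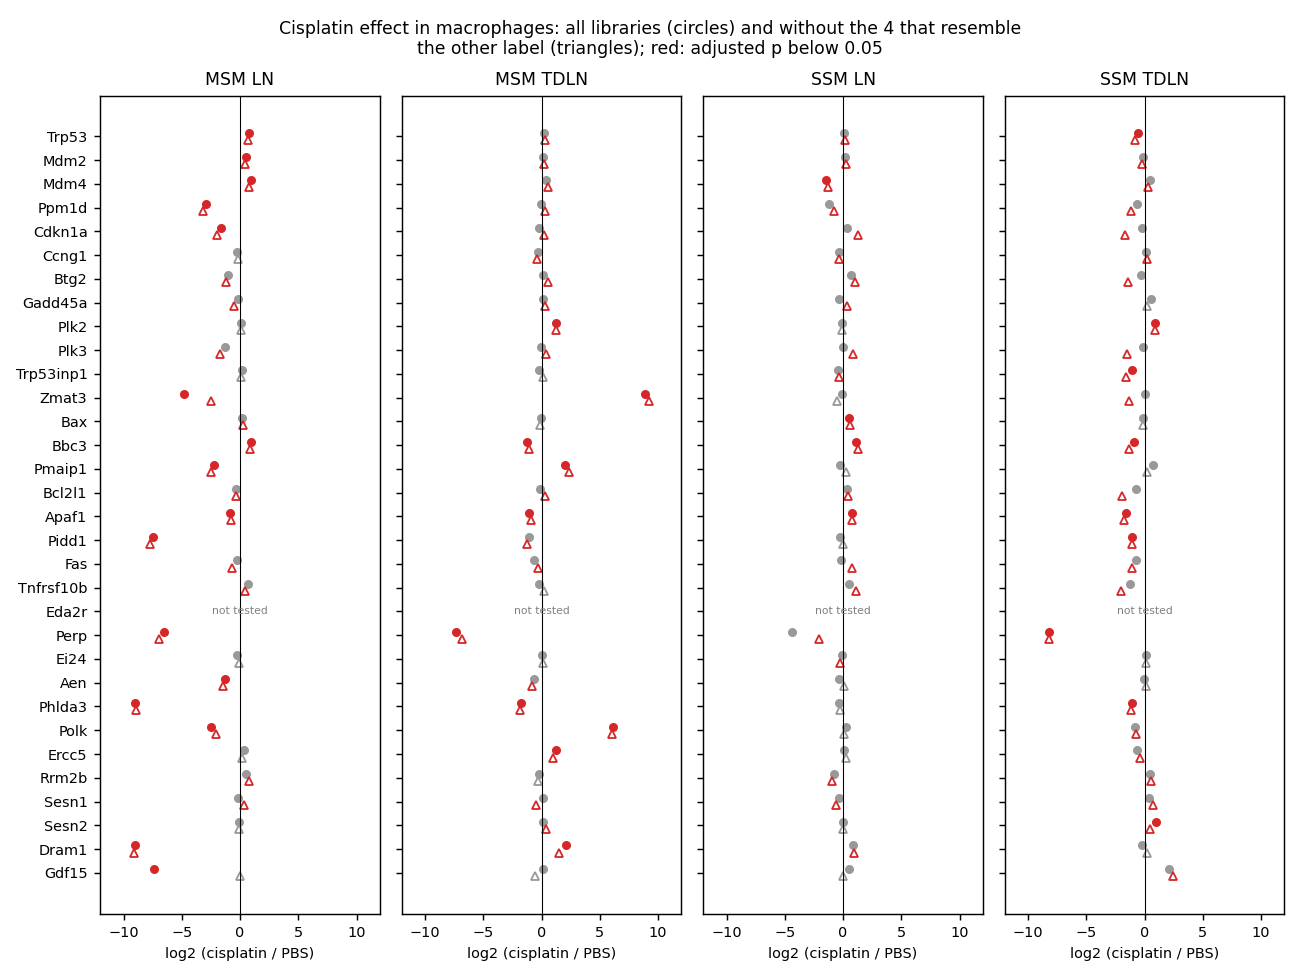
Cisplatin against PBS for each member in the 4 macrophage comparisons, as log2 fold change with all libraries (circles) and without the 4 that resemble the other label (triangles), red where the adjusted p is below 0.05. Cdkn1a in medullary TDLN lies left of 0 as a circle (-0.26) and right of 0 as a triangle (0.21), and many grey circles have a red triangle.

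Between the nodes with PBS, 5 of 31 members were higher and 8 lower in medullary TDLN than in medullary LN (38.2% of all genes called, 11.6% higher and 26.6% lower, and 56% without overlap), and 4 higher and 3 lower in the subcapsular pair (19.7%, 7.63% higher and 12% lower). The subcapsular count of 7 was 12 without LN PBS replicate 2 or TDLN CIS replicate 3, 4 without LN PBS replicate 1 or 3 or TDLN PBS replicate 1, 3 without TDLN PBS replicate 2 and 1 without TDLN PBS replicate 3. Bbc3, Phlda3 and Apaf1 were higher in the TDLN in both: Bbc3 by 1.37 ± 0.286 and 1.08 ± 0.295, Phlda3 by 1.52 ± 0.269 and 0.99 ± 0.204, and Apaf1 by 0.58 ± 0.202 and 0.59 ± 0.175. With a library left out, Apaf1 lost its call in 9 of 12 medullary and 8 of 12 subcapsular fits and Bbc3 in 5 of 12 subcapsular fits, and Polk was the only subcapsular call to pass in all 12. Plk2 and Mdm4 were lower in both, Plk2 by -0.88 ± 0.108 and -0.47 ± 0.0995 and Mdm4 by -0.69 ± 0.182 and -0.77 ± 0.183. Polk was lower in medullary (-5.15 ± 0.754) and higher in subcapsular TDLN (1.67 ± 0.28). The same TDLN PBS libraries serve as controls of the cisplatin comparisons above. Without the 4 libraries 26 of 31 members were called in each pair, where 69.7% and 67.8% of all genes were. Between medullary TDLN and LN with PBS, macrophage markers summed to 23300 to 23600 and 13800 to 14600 CPM. Neutrophil markers were at 7820 to 8020 and 313 to 4880 CPM there, and mast cell markers at 50.4 to 60.2 and 135 to 1120 CPM. The subcapsular pair had 12400 to 12700 and 13500 to 13700 CPM of macrophage markers. The part of these cell types was not tested.

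Averaged over the 4 conditions, medullary macrophages held more Mdm4 (0.65 ± 0.0886) and less of 9 members than subcapsular ones, among them Phlda3 (-2.13 ± 0.153), Dram1 (-3.20 ± 0.262), Polk (-2.53 ± 0.24) and Zmat3 (-3.63 ± 0.651), where 30.2% of all genes were called (7.72% higher, 22.5% lower). No member, and no other gene of 19671, separated the 2 labels in all libraries. In LN PBS and TDLN CIS alone, the conditions that hold the libraries resembling the other label, no member was called, against 18 in LN CIS and 8 in TDLN PBS. The shares of all genes called within single conditions are not given here, so these counts cannot be set beside them. In LN CIS, macrophage markers summed to 1800 to 1900 CPM in medullary and 23700 to 24100 CPM in subcapsular libraries. Their part in the 18 calls was not tested. Without the 4 libraries and the LN CIS groups Phlda3 stood at 0.06 (adjusted p = 0.793) and Pidd1 and Pmaip1 changed sign.

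Across the 8 comparisons of cisplatin with PBS, which were adjusted each over its own genes, no member was called as higher in more than 2. With all libraries, Bcl2l1, Fas, Rrm2b and Tnfrsf10b were called in none, while Eda2r was too low to be tested in any, and Fas was called in subcapsular LN without the 4 libraries. With Eda2r counted, 16 members were called in none of the 4 dendritic cell comparisons. Among these, Gdf15 was not tested in migratory cells and Perp was not tested in resident cells. The shares of all genes called in none, or as higher in more than 2, are not given here. These tallies therefore cannot be set beside all genes. Node differences of the cisplatin effect were also called for 8 members above 0 and 2 below in medullary macrophages (40.7% of all genes, 31.1% above and 9.64% below) and for 3 and 3 in subcapsular ones (21.6%, 13.4% and 8.21%).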

How the data were processed

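Polyadenylated RNA of sorted cells was sequenced after TruSeq Stranded mRNA library preparation, per the labels' protocols. The authors deposited 1 table of expected counts and 1 of TPM for the macrophages and for the dendritic cells; STAR, RSEM 1.3.0, DESeq2 1.38.3 and the GRCm38 build are named per the submitters' processing notes, without the strand setting. The deposited counts are the authors' estimated counts in whole numbers and the deposited macrophage TPM came without decimals, recorded as a score and not used for levels here, while the dendritic TPM were used as the authors deposited them. Dendritic columns named for the tumor were taken as TDLN and those named WT as LN by elimination, since no other group was left for them. Symbols were present for 55227 genes (99.5%), and 0 columns were left without a sample.

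The members and lists were chosen with earlier results of these data known. Counts were tested with edgeR 4.0.16 (R 4.3.3), by the quasi-likelihood test after filterByExpr by group and TMM scaling, in 1 model of 4 groups (12 libraries) per cell type and 1 of 8 groups (24 libraries) for 2 types of a table, with Benjamini-Hochberg adjustment over all genes tested at a limit of 0.05. SE is the log2 fold change over the square root of its F. Each of the 18 comparisons was adjusted separately. CPM use the scaling of the same model, SD are over 3 libraries, and groups that do not overlap have every library of one above every library of the other. Core members and up to 6 further called members per direction, of at least 4 CPM and with groups that do not overlap, were given by library; Zmat3 and Perp were named below 4 CPM after their values were seen. The fits were tested on simulated data. No pair of replicate libraries agreed within sampling noise (lowest chi-square per degree of freedom 1.72 over 48 pairs). Alternatives were DESeq2 1.42.0, its size factors, no count filter, the replicate number as a block, only the groups compared, a 2-fold minimum, each library left out, deep libraries thinned to the depth of the others, and, chosen after the data were seen, averages over fewer or single conditions.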

Additional observations from a re-analysis of the deposited data

Results flagged for a closer look

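Members are listed here because their cisplatin effect differed between the TDLN and the LN by a test of the difference itself (edgeR's quasi-likelihood test, Benjamini-Hochberg adjusted p below 0.05); values are the TDLN effect minus the LN effect as log2 ± SE. In migratory dendritic cells the difference was below 0 for Btg2 by -0.32 ± 0.0616, Ccng1 by -0.66 ± 0.0843, Cdkn1a by -0.50 ± 0.0913, Ei24 by -0.52 ± 0.133, Mdm2 by -0.44 ± 0.0944, Phlda3 by -0.98 ± 0.165, Plk3 by -1.16 ± 0.24, Sesn1 by -0.87 ± 0.219, Sesn2 by -0.33 ± 0.1 and Trp53inp1 by -0.46 ± 0.132. In resident dendritic cells it passed for Btg2 by 0.52 ± 0.0941, Dram1 by 1.62 ± 0.423 and Trp53inp1 by -0.93 ± 0.211. In medullary macrophages, where 2 of the libraries resemble the other label, it passed for Bbc3 by -2.17 ± 0.402, Dram1 by 11.11 ± 0.947, Phlda3 by 7.29 ± 0.645, Pidd1 by 6.41 ± 0.895, Plk2 by 1.17 ± 0.152, Pmaip1 by 4.27 ± 0.532, Polk by 8.59 ± 0.989, Ppm1d by 2.88 ± 0.54, Trp53 by -0.56 ± 0.191 and Zmat3 by 13.63 ± 2.31. The values of Zmat3 and Phlda3 rest on groups without a count and depend on the prior count. Dram1 and Pidd1 were at 0 to 0.146 and 0 to 0.292 CPM in medullary LN CIS, and Polk at 0 to 0.478 CPM in medullary TDLN PBS. Macrophage markers summed to 1800 to 1900 CPM in medullary LN CIS and 13800 to 14600 CPM in LN PBS. The part of this in the values was not tested. In subcapsular macrophages, where 2 of the libraries also resemble the other label, the node difference passed for Apaf1 by -2.34 ± 0.25, Bax by -0.65 ± 0.156, Bbc3 by -2.07 ± 0.416, Mdm4 by 1.89 ± 0.26, Plk2 by 1.01 ± 0.141 and Rrm2b by 1.20 ± 0.343. The share of all genes called was 15.6% in migratory and 5.31% in resident dendritic cells, 40.7% in medullary and 21.6% in subcapsular macrophages. With each of the 12 libraries left out in turn, calls were lost in 10 fits for Rrm2b and 2 for Bax in subcapsular macrophages, in 5 for Trp53 in medullary macrophages, in 7 for Dram1 and 1 for Trp53inp1 in resident dendritic cells, and in 2 each for Trp53inp1 and Sesn2 in migratory dendritic cells.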

How the results depend on the processing

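Counts below are of members called. Shares of all genes called are given here only for fits without the 4 libraries that resemble the other label. The other counts, such as those without a count filter, cannot be set beside a share. With each library left out in turn the cisplatin comparisons gave 12 to 18 in medullary LN, 10 to 16 in medullary TDLN, 1 to 11 in subcapsular LN, 4 to 17 in subcapsular TDLN, 1 to 6 in migratory LN, 11 to 15 in migratory TDLN, 3 to 8 in resident LN and 0 in resident TDLN. The node differences gave 9 to 15 in medullary, 4 to 18 in subcapsular, 9 to 11 in migratory and 1 to 8 in resident cells, with 17 in subcapsular cells without LN PBS replicate 2 and 18 without TDLN CIS replicate 3. TDLN against LN with PBS gave 9 to 16 in medullary, 1 to 12 in subcapsular, 6 to 10 in migratory and 7 to 13 in resident cells, medullary against subcapsular 6 to 12 (6 without medullary LN CIS replicate 3, medullary TDLN PBS replicate 1 or subcapsular TDLN PBS replicate 1), and migratory against resident 26 to 28.

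Without the 4 libraries that resemble the other label, cisplatin counts were 25 in medullary TDLN, 21 in subcapsular LN and 25 in subcapsular TDLN. Beside these, 69.0%, 60.0% and 71.1% of all genes were called. The medullary and subcapsular node differences gave 22 and 27, where 65.1% and 65.8% of all genes were called. TDLN against LN with PBS gave 26 in both types, where 69.7% and 67.8% of all genes were called. Medullary against subcapsular gave 24, where 57.2% of all genes were called. It gave 23 without the LN CIS groups too, a count with no share beside it. The same comparison gave 0 within LN PBS, 18 within LN CIS and 0 within TDLN CIS. It gave 6 with DESeq2 size factors, without a count filter or with a 2-fold minimum. The 2-fold minimum also gave 2 in subcapsular LN, 5 in subcapsular TDLN, 1 in migratory LN, 0 in migratory TDLN and 2 in resident LN with cisplatin, 1 for the node difference of each dendritic type, and 8, 3, 0 and 1 for TDLN against LN with PBS in medullary, subcapsular, migratory and resident cells. Without a count filter there were 22 in migratory TDLN (12 of the 13 among them), 10 in resident LN (3 of the 6), 19 and 7 for the migratory and resident node differences, and 4 and 22 for TDLN against LN with PBS in subcapsular and migratory cells; in migratory TDLN this moved the median of all genes to 0.25 and of the members to -0.45, and in resident LN the median of all genes to 0.41. DESeq2 gave 7 in subcapsular LN and 13 in migratory TDLN against LN with PBS. A fit of only the groups compared gave 2 in migratory LN, with fewer libraries. The cause of the other changes was not tested.

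Replicate numbers did not pair the samples: in 0 of 20 pairs of groups were all same-numbered correlations over 0.1 (range -0.97 to 0.96), and in 1 every library correlated best with its own number. The replicate block gave 2 calls in subcapsular LN and was within 1.5 times the count without it in the other comparisons.

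Directions turned as follows. Without the 4 libraries Cdkn1a in medullary TDLN became 0.21, Fas in subcapsular LN 0.76 and Gdf15 in medullary LN 0 (also without LN PBS replicate 2; -7.99 at the lowest with another library left out). Medullary against subcapsular turned for Apaf1 (0.25 without the 4 libraries and LN CIS, 0.44 within TDLN CIS), Pmaip1 (0.46, and 0.20 and 0.39 within LN PBS and TDLN CIS), Pidd1 (0.38, and 0.48, 0.15 and 0.11 within LN PBS, TDLN PBS and TDLN CIS), Phlda3 (0.06, and 0.50 within TDLN PBS), Ercc5 (0.33 and 0.57 within LN PBS and LN CIS), Dram1 (0.17 within LN PBS), Zmat3 (0.57 within TDLN CIS) and Gdf15 (1.46 within TDLN PBS). Migratory against resident turned for Apaf1 (-0.05 within LN PBS), Gadd45a (0.28 within TDLN PBS) and Btg2 (0.02 without resident TDLN CIS replicate 2 and -0.07 at the lowest with another library left out, 0.11 within LN CIS, 0.30 within TDLN PBS). At 2002713 to 3842097 counts, members of a few CPM, such as Eda2r, Gdf15 and Perp, are limited by depth.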
